A study of Mus musculus with 16 samples.

Results

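The genes described here are 48 genes of the cell cycle machinery. These genes were measured in primary podocytes of *Tsc2*-deleted and control mice, in separate groups with and without rapamycin. They were taken by gene symbol, through the transcript identifiers of the array's probes. No measured value entered that rule, but the list was chosen with earlier results of these data known. The members make up 48 of the 22917 genes that the array's probes could be matched to. By role they fall into 11 genes of the G1 phase, 12 of the S phase, 19 of mitosis and 6 cyclin-dependent kinase inhibitors. The members had 73 probes in all, and 21 of the genes had more than 1 probe, so the brightest tested probe stands for each gene. A gene was tested where, in 1 group or more, that probe stood well above background on each of the 4 arrays. This held for 47 of the 48 genes. The exception was *Ccne2*, which encodes cyclin E2 and was above background on 2 of 4 arrays in 3 of the groups and on 0 of 4 in the rapamycin-treated *Tsc2*flox/flox group.

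A cell that enters the cycle first raises its D-type cyclins, which with Cdk4 and Cdk6 phosphorylate the retinoblastoma protein Rb1 and release the E2F transcription factors. E2F in turn switches on the genes of DNA replication, and a later wave of transcription, driven by B-Myb, Foxm1 and their partners, makes the cyclins, kinases and spindle proteins of mitosis. Cyclin-dependent kinase inhibitors of the Cip/Kip and Ink4 families hold the cycle back. The podocyte, the epithelial cell that covers the glomerular capillary with foot processes, leaves the cycle as it matures and keeps high levels of some of these inhibitors in the kidney, whereas cells that grow out of a glomerulus in a dish can divide. Tsc2 is part of the complex that restrains mTORC1, a kinase complex that couples nutrients to cell growth, and rapamycin inhibits mTORC1.

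The 16 samples were total RNA of primary podocytes from male Jcl:ICR mice, in 4 groups of 4. Tsc2Δpodocyte mice carried floxed *Tsc2* alleles and a Cre transgene active in podocytes, which limits deletion to cells in which the transgene has been expressed. Tsc2flox/flox mice carried the floxed alleles without Cre and were the controls. The untreated groups of both genotypes were 4 weeks old, and the Tsc2Δpodocyte + Rapamycin and Tsc2flox/flox + Rapamycin groups were 5 weeks old, after 1 week of rapamycin. No vehicle is named for the untreated groups. Cells were grown out of glomeruli that had been isolated with magnetic beads, on collagen-coated dishes with serum, so the arrays measure outgrown cultures and not podocytes in the kidney. No source used here says that each sample is a different mouse, so the p-values reflect how far these samples spread, and part of that may be technical. In such bulk samples, fewer dividing cells and less RNA per cell cannot be told apart. The untreated arrays lay on 1 slide and the treated arrays on the other, and the genotypes lay in separate rows of each slide. Treatment, slide and age therefore cannot be told apart, nor can genotype and slide row.

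All levels below are log2 signals relative to the 75th percentile of the same array, which was between 349 and 468 in signal units. Differences are log2 differences between group means, given with the 95% interval from limma. This linear model draws each probe's own variance towards a common value. Adjusted p-values come from limma over all 27579 tested probes, after Benjamini and Hochberg, and a gene passed at an adjusted p under 0.05. Single genes were also tested by a 2-sided exact permutation test, for which 4 arrays against 4 allow no p below 0.0286. *Tsc2* itself was lower on each Tsc2Δpodocyte array than on each Tsc2flox/flox array of the same treatment for both of its probes. For the brighter probe, levels were between 1.93 and 2.31 against 2.95 to 3.71 without treatment, and between 2.05 and 2.73 against 2.83 to 3.65 with rapamycin (exact permutation p = 0.0286 for each). Their place relative to the deleted exons was not determined here.

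The promoters of the role groups differed in the motifs they held. RefSeq (build GRCm38.p6) gave 44 promoters for 38 of the 48 members, each with 250 bases before and 50 after a transcription start. Missing were *Cdkn1c*, *Ccne2*, *Mcm4*, *Ccnd2*, *Aurkb*, *Ccna2*, *Rb1*, *Foxm1*, *Tpx2* and *Ccnd1*. Each was searched on both strands for the E2F motif TTTNNCGC, for the cell cycle genes homology region (CHR), here TTTGAA or TTCGAA, and for CCAAT, the motif of the factor NF-Y, with overlapping matches counted. The CHR stood in 13 of the 15 promoters of mitosis members, against 19.2% of all 32851 promoters in the table. CCAAT stood in 14 of the same 15, against 37.4% of all promoters, and 13 of the 15 held both, against 7.52%. In the 12 promoters of S phase members the CHR was found in 2, while the E2F motif was found in 7, against 5.17% of all promoters, and CCAAT in 9. The 9 promoters of G1 members held the E2F motif in 3, the CHR in 1 and CCAAT in 4. The 8 promoters of inhibitors held them in 2, 1 and 3. Genes outside the 48 were searched in the same way. Of 37 promoters of other mitosis genes 24 held the CHR and 6 the E2F motif, and of 27 promoters of other S phase genes 7 held the CHR and 9 the E2F motif. A match is a run of letters and does not show that a factor binds there.

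The 160 bases before the start are given for 4 mitosis members, because they show the CHR and CCAAT pair that most of their group holds. They are printed 5′ to 3′ on the strand of the gene, in build GRCm38.p6, with every match to one of the motifs in capitals. Kif11 is a spindle motor that had the smallest p of the mitosis members between the untreated genotypes, Cdc20 and Ube2c drive the degradation of mitotic proteins, and Cdk1 is the kinase of mitotic entry. The *Cdk1* stretch holds E2F matches as well as the CHR.
Kif11, chr19:37376222-37376381, plus strand: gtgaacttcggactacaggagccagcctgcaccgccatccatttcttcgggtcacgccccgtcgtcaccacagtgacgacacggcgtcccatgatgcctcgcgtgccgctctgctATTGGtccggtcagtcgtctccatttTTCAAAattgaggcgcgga
Cdc20, chr4:118437344-118437503, minus strand: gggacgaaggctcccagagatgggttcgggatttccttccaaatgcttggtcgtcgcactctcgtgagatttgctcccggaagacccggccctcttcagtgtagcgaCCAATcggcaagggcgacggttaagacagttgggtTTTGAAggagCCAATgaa
Ube2c, chr2:164769769-164769928, plus strand: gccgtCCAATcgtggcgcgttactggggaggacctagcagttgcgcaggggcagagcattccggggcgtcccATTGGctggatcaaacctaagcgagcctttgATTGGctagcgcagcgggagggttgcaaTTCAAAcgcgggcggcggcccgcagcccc
Cdk1, chr10:69352913-69353072, minus strand: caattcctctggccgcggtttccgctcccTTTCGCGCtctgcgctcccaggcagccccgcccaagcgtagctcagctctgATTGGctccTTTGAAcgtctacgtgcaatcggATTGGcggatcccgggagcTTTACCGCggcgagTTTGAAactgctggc

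For the S phase, *Mcm5* and *Mcm6*, subunits of the replicative helicase, are shown for their E2F matches, of which 2 on opposite strands overlap in each. *Rrm1*, the large subunit of ribonucleotide reductase, is shown because it had the smallest p of the S phase members between the untreated genotypes. Its stretch holds 2 CCAAT matches and neither other motif.
Mcm5, chr8:75109349-75109508, plus strand: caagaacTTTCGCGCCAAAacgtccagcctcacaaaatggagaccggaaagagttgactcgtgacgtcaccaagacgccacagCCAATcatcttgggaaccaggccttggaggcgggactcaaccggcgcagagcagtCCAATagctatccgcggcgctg
Mcm6, chr1:128359706-128359865, minus strand: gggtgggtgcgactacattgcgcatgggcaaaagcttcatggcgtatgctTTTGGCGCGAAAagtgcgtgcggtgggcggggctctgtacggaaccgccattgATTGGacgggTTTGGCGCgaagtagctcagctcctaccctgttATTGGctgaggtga
Rrm1, chr7:102441535-102441694, plus strand: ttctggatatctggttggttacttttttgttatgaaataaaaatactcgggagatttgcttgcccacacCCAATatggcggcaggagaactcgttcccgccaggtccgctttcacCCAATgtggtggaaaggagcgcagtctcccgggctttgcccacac

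*Ccnd3*, the gene for cyclin D3 and the member that passed the test between the untreated genotypes, has 2 starts in the table. Neither stretch held an E2F or CHR match, and the second held 1 CCAAT.
Ccnd3 first start, chr17:47504891-47505050, plus strand: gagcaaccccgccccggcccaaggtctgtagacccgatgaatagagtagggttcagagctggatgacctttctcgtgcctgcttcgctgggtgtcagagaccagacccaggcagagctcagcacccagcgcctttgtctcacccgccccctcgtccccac
Ccnd3 second start, chr17:47593307-47593466, plus strand: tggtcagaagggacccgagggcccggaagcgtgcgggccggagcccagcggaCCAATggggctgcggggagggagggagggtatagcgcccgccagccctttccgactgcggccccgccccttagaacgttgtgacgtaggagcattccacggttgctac

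The first comparison set untreated Tsc2Δpodocyte cells against untreated Tsc2flox/flox cells. Cyclin D3 rose, and every S phase and mitosis gene had a lower mean in Tsc2Δpodocyte than in Tsc2flox/flox cells, but none of those 31 genes passed the test. Of the 47 tested members 1 rose and 0 fell, against 10.3% and 9.2% of all 14095 tested genes (19.5% in either direction). With a fold of at least 1.5 also required, 0 of the 47 passed, against 10% of all tested genes. At an unadjusted p under 0.05, limma counted 1 member higher and 9 lower, against 9059 of all 27579 tested probes in either direction. A quantile normalization left 1 member lower and a normexp background correction 4, and the methods' t-test after adjustment left 0 in either direction. Shares over all tested genes were not computed for these alternatives. The median difference of the 47 members was -0.35, with 41 below 0, against a median of -0.01 over all tested genes, of which 48.7% lay above 0.

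**Figure D1:**
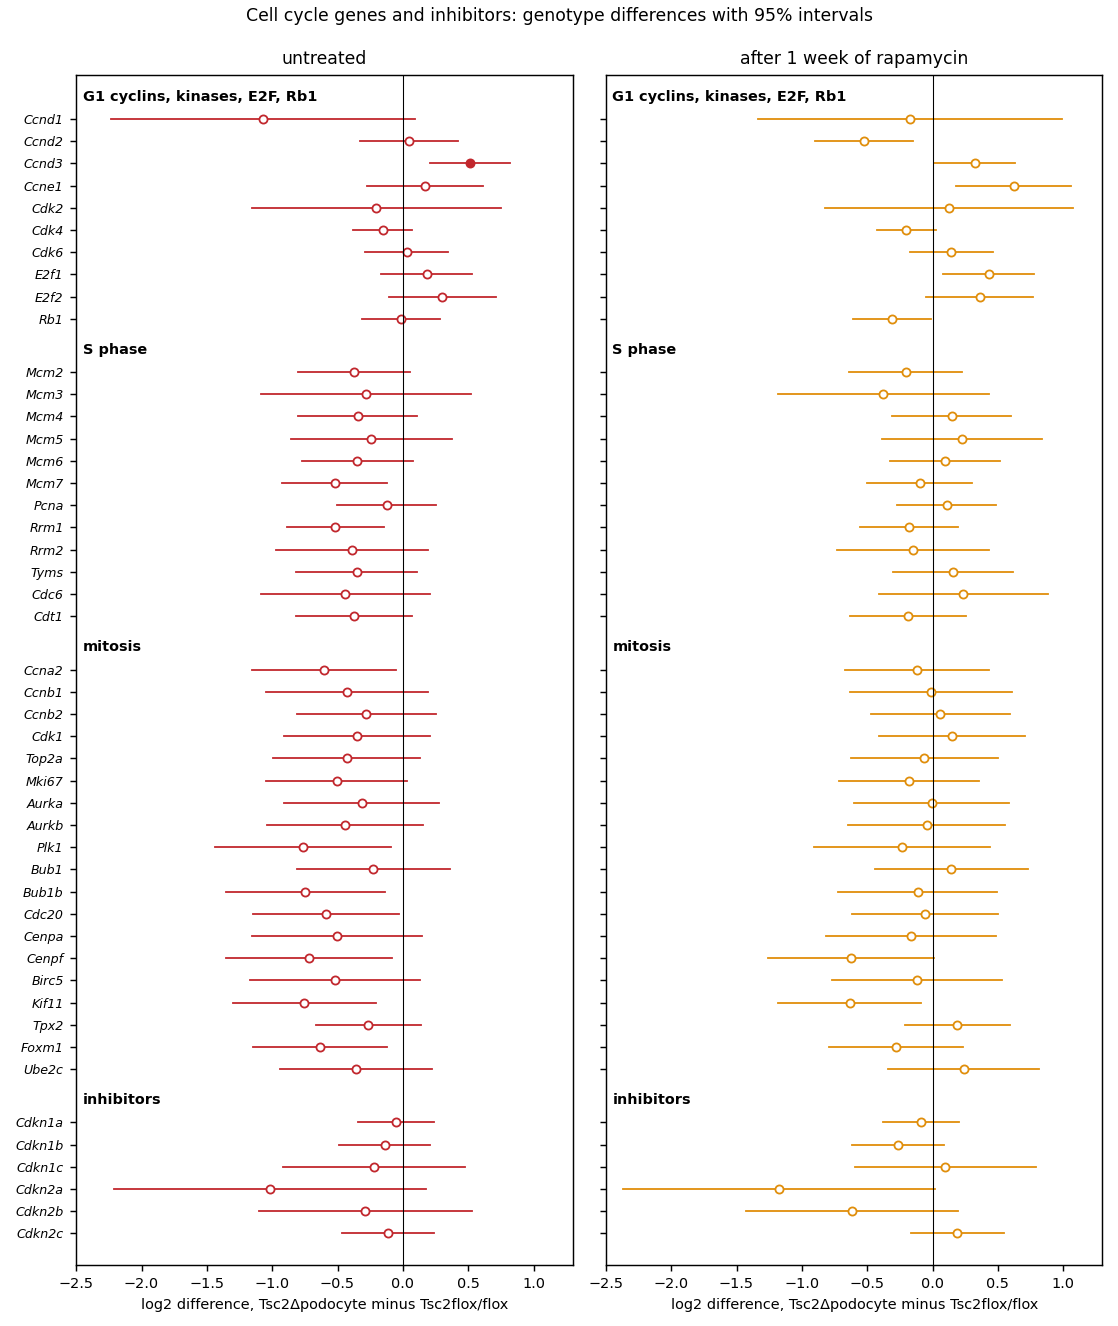
Log2 difference between Tsc2Δpodocyte and Tsc2flox/flox (x axis) for the 47 tested members, in rows by role, without treatment (left) and with rapamycin (right); circles are differences of means of 4 arrays, lines are 95% intervals from limma, and a filled circle passed at an adjusted p under 0.05. Only Ccnd3 without treatment is filled, and the circles of the S phase and mitosis genes lie left of 0 without treatment and on both sides of 0 with rapamycin.

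Among G1 genes, *Ccnd3*, a D-type cyclin that activates Cdk4 and Cdk6, had levels of 5.47, 5.70, 5.37 and 5.38 on the Tsc2Δpodocyte arrays and of 4.70, 5.02, 5.18 and 4.97 on the Tsc2flox/flox arrays. The lowest Tsc2Δpodocyte array lay above the highest control, so the groups did not overlap. Cyclin D3 was 0.51 higher on the log2 scale, or 1.43-fold (95% interval 0.21 to 0.82, limma adjusted p = 0.0248, exact permutation p = 0.0286). That fold lies under the 1.5-fold threshold of the authors' methods. The second *Ccnd3* probe had a difference of 0.34 and did not pass (limma adjusted p = 0.133). The call was lost without Tsc2Δpodocyte array 2, Tsc2flox/flox array 1 or Tsc2flox/flox array 4 (limma adjusted p = 0.0755, 0.0682 and 0.0536). It was also lost under normexp background correction, without the filter on dim probes and with the mean of a gene's probes (limma adjusted p = 0.0600, 0.0711 and 0.0540), and by the methods' t-test after adjustment (0.0535).

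*Ccnd1*, the D-type cyclin that growth factors induce, spread widely among the Tsc2Δpodocyte arrays. It stood at 3.01, 1.98, 4.73 and 3.88 there and at 4.58, 4.46, 4.23 and 4.62 on the control arrays. Array 3 of the Tsc2Δpodocyte group lay above all controls and the other 3 below them. The difference of -1.07 did not pass (95% interval -2.24 to 0.09, limma adjusted p = 0.187), and the SD was 1.18 in Tsc2Δpodocyte against 0.18 in Tsc2flox/flox cells (n = 4 each). *Ccnd2*, the third D-type cyclin, differed by 0.05 (95% interval -0.33 to 0.42). The other G1 members did not pass either. *Cdk4* differed by -0.16, *Cdk6*, its partner kinase, by 0.03 and *Rb1*, the retinoblastoma gene, by -0.01. The transcription factor genes *E2f1* and *E2f2* differed by 0.18 and 0.30, and *Ccne1*, for the cyclin that acts at the G1/S transition, by 0.17. Its partner *Cdk2* differed by -0.20 with a wide interval (-1.15 to 0.75).

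The 12 S phase members encode the helicase subunits Mcm2 to Mcm7, the licensing factors Cdc6 and Cdt1, the sliding clamp Pcna and enzymes that make deoxynucleotides. Their median difference was -0.36, from -0.52 for *Mcm7* to -0.12 for *Pcna*, and none passed. *Rrm1* stood at 2.85, 2.53, 2.66 and 2.72 in Tsc2Δpodocyte cells and at 2.88, 3.54, 3.28 and 3.13 in Tsc2flox/flox cells. The groups did not overlap, but the highest Tsc2Δpodocyte array and the lowest control array were 0.03 apart. The difference of -0.52 (95% interval -0.89 to -0.14) had a limma adjusted p of 0.0548 and an exact permutation p of 0.0286. *Mcm7*, with a difference of -0.52 (-0.92 to -0.12), had a limma adjusted p of 0.0675, and its groups overlapped.

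The 19 mitosis members encode mitotic cyclins and kinases, centromere and spindle proteins, and the proliferation antigen Ki-67. Their median difference was -0.51, from -0.77 for *Plk1*, a kinase of mitotic entry and spindle assembly, to -0.23 for the checkpoint kinase gene *Bub1*. *Mki67*, which encodes Ki-67, stood at 2.70, 2.17, 2.85 and 2.94 in Tsc2Δpodocyte cells and at 2.64, 3.53, 3.29 and 3.24 in Tsc2flox/flox cells. Tsc2flox/flox array 1 lay among the Tsc2Δpodocyte arrays and the other 3 controls lay above them. The difference was -0.51 (95% interval -1.04 to 0.03, limma adjusted p = 0.176, exact permutation p = 0.114).

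*Kif11* stood at -2.07, -2.52, -1.94 and -1.84 against -2.003, -0.76, -1.31 and -1.28. Here too Tsc2flox/flox array 1 lay within the range of the Tsc2Δpodocyte arrays. The difference was -0.75 (95% interval -1.30 to -0.21, limma adjusted p = 0.0545). *Foxm1*, which encodes a transcription factor of the mitotic wave, differed by -0.64 (-1.15 to -0.12, limma adjusted p = 0.0805), and the spindle checkpoint gene *Bub1b* by -0.75 (-1.35 to -0.14, limma adjusted p = 0.0836). Without Tsc2flox/flox array 1, 6 members passed as lower, which were *Mcm7*, *Rrm1*, *Bub1b*, *Cenpf*, *Kif11* and *Foxm1* (limma adjusted p from 0.0159 for *Kif11* to 0.0472 for *Bub1b*), and *Ccnd3* did not pass. The share of all tested genes that passed as lower without that array was not computed, so whether the members exceed it is not known.

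The 31 S phase and mitosis genes moved together from array to array, so their common sign is not 31 separate observations. To show this, each gene was centred on its mean over the 16 arrays. Within the untreated controls, array 2 was the highest for 31 of the 31 genes and array 1 the lowest for 29, the exceptions being *Aurkb* and *Bub1*. Array 2 was the lowest Tsc2Δpodocyte array for 31 of 31, and array 3 the highest for 23. With rapamycin, array 1 was the highest Tsc2flox/flox array for 31 of 31, and among the Tsc2Δpodocyte arrays array 3 was the lowest for 30 and array 4 the highest for 30, *Mcm3* and *Cenpf* being the exceptions. The *Mcm3* exception rests on the chosen probe's value of 1.93 on array 2, since its other tested probes were lowest on array 3.

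**Figure D2:**
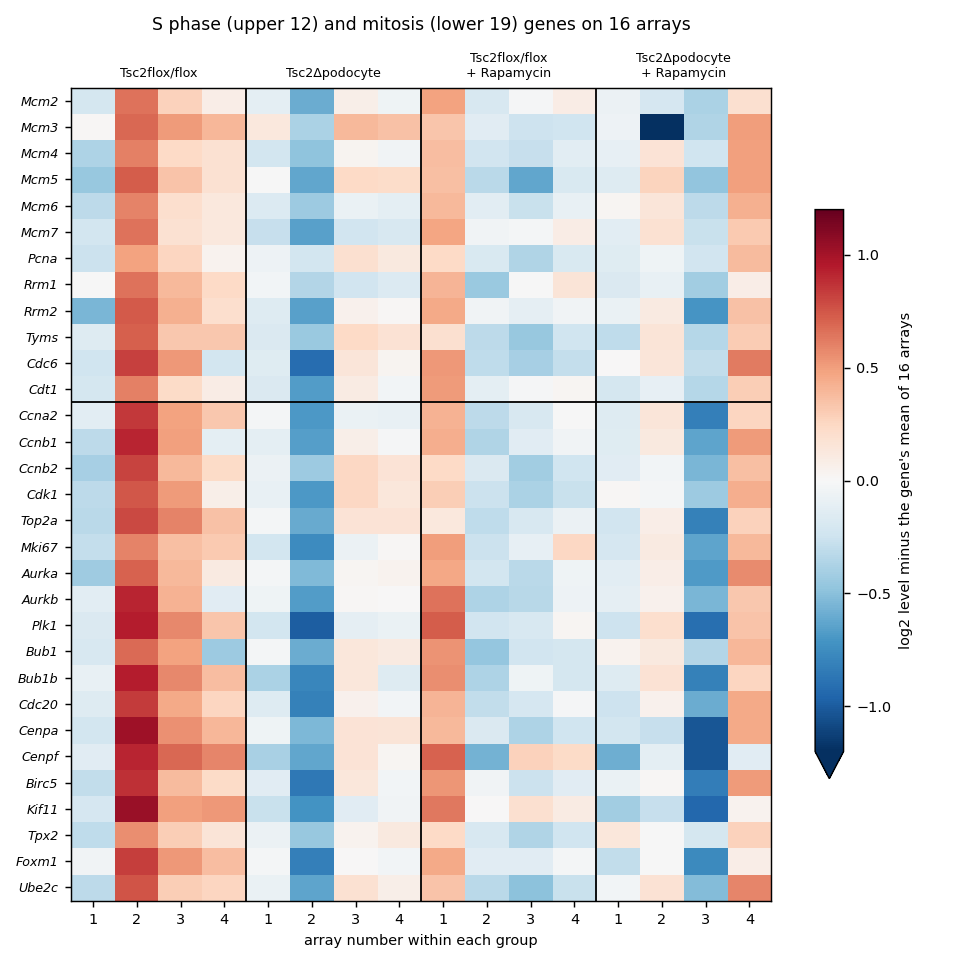
Heat map of the 12 S phase (upper) and 19 mitosis (lower) genes in rows and the 16 arrays in columns, by group and array number; colour is the log2 level minus the gene's mean over the 16 arrays, from blue (low) to red (high), with the scale ended at -1.2, which 1 value (Mcm3 on Tsc2Δpodocyte + Rapamycin array 2) lies below. Whole columns share a colour, such as the red Tsc2flox/flox array 2 and the blue Tsc2Δpodocyte array 2.

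The mean centred level of the 31 genes was -0.24, 0.76, 0.41 and 0.19 on the Tsc2flox/flox arrays and -0.12, -0.62, 0.07 and 0.03 on the Tsc2Δpodocyte arrays. Control array 1 lay below 3 of the 4 Tsc2Δpodocyte arrays, and the other 3 controls lay above all of them. With rapamycin the levels were 0.43, -0.24, -0.22 and -0.08 on the Tsc2flox/flox arrays and -0.15, -0.02, -0.56 and 0.35 on the Tsc2Δpodocyte arrays. There 1 control and 1 Tsc2Δpodocyte array were high and the groups overlapped throughout. The range of the single arrays of a group went from 0.67 in treated Tsc2flox/flox to 1.00 in untreated Tsc2flox/flox cells. The untreated group means were 0.44 apart (0.28 ± 0.42 in Tsc2flox/flox and -0.16 ± 0.32 in Tsc2Δpodocyte cells, SD, n = 4). A range of single arrays and a difference of means are unlike measures, so setting them side by side does not test that difference. The median SD within groups was 0.31 for the S phase members and 0.41 for the mitosis members, against 0.20 for all tested genes.

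**Figure D3:**
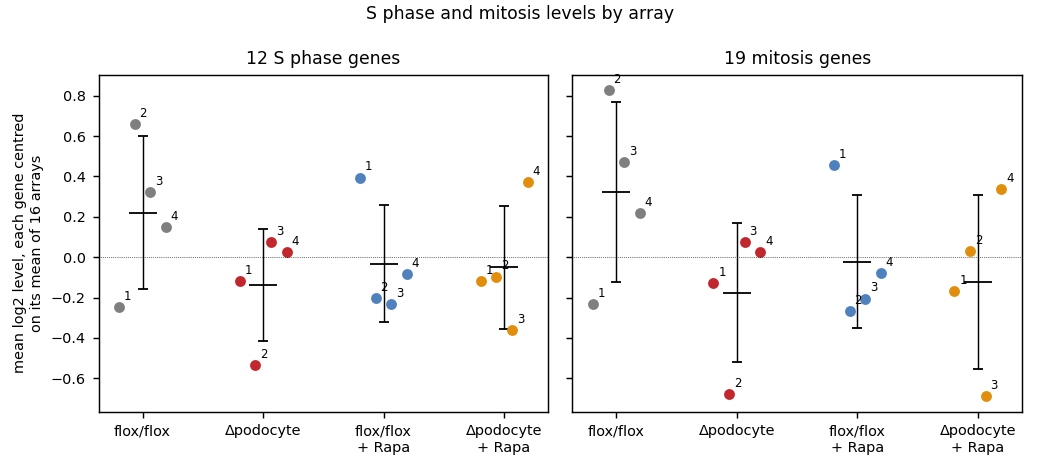
Mean log2 level of the 12 S phase genes (left) and the 19 mitosis genes (right) on each array, each gene centred on its mean over the 16 arrays (y axis), by group (x axis); points are arrays with their number, and the bar and whiskers give the mean and SD of 4 arrays. Arrays of 1 group are up to 1.00 apart in the mean of all 31 genes, and only the untreated controls have 3 arrays above every array of the other genotype.

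Further genes of replication and mitosis, outside the 48, were counted in the same way. Of 28 other S phase genes 1 fell in untreated Tsc2Δpodocyte cells and 0 rose, against 9.2% and 10.3% of all tested genes. The 28 genes had a median difference of -0.26, with 25 below 0. The gene that fell was *Cdc25a*, for a phosphatase that activates Cdk2, at -0.57 (95% interval -0.86 to -0.29, limma adjusted p = 0.00983). It stood at 2.55, 2.33, 2.75 and 2.75 in Tsc2Δpodocyte cells against 2.94, 3.43, 3.17 and 3.13, without overlap. The next smallest p-values were those of the DNA polymerase delta subunit gene *Pold1* (-0.57, limma adjusted p = 0.0661) and of *Uhrf1*, which maintains DNA methylation at replication (-0.57, limma adjusted p = 0.0855).

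Of 40 other mitosis genes 2 fell and 0 rose, against 9.2% and 10.3% of all tested genes. The 40 genes had a median difference of -0.48, with 40 below 0. *Smc4*, a condensin subunit, fell by 0.62 on the log2 scale (95% interval of the difference -0.98 to -0.26, limma adjusted p = 0.0220), and *Kif23*, a motor of cytokinesis, fell by 1.06 (-1.76 to -0.36, limma adjusted p = 0.0384). The separase gene *Espl1* had a difference of -0.95 and did not pass (limma adjusted p = 0.0563). Of 14 pocket protein, E2F and DREAM genes 1 rose and 1 fell, against 10.3% and 9.2% of all tested genes. *E2f4*, for a repressive E2F, rose by 0.38 (0.14 to 0.63, limma adjusted p = 0.0320), and *Lin9*, for a subunit shared by the DREAM and B-Myb complexes, fell by 0.63 (interval of the difference -1.07 to -0.19, limma adjusted p = 0.0476). *Rbl1*, which encodes the pocket protein p107, differed by -0.35 (limma adjusted p = 0.0999).

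None of the 6 inhibitors passed between the untreated genotypes. All 6 had differences below 0, with a median of -0.18. *Cdkn1a* encodes p21, the inhibitor that p53 induces. It stood at 4.61, 4.65, 4.22 and 4.51 in Tsc2Δpodocyte cells and at 4.88, 4.38, 4.39 and 4.55 in Tsc2flox/flox cells. The groups lay across each other, and the difference of -0.06 had a 95% interval of -0.35 to 0.24. The dimmer *Cdkn1a* probe, which carries another transcript identifier, differed by -0.46 (-1.005 to 0.08, limma adjusted p = 0.221) and under rapamycin by -0.59 (-1.13 to -0.05, limma adjusted p = 0.155), so for p21 the size of the difference depended on the probe. *Cdkn1b*, which encodes p27, stood at 1.70, 2.03, 1.12 and 1.46 against 1.99, 1.72, 1.64 and 1.51. These also lay across each other (-0.14, interval -0.49 to 0.21).

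*Cdkn1c*, for p57, an inhibitor known as a marker of mature podocytes in the kidney, stood at 1.57, 2.25, 1.36 and 1.71 in Tsc2Δpodocyte cells and at 1.11, 2.23, 2.10 and 2.34 in Tsc2flox/flox cells. Both groups covered much of the same range, and the difference was -0.22 (-0.91 to 0.48). *Cdkn2c*, for p18, stood at 0.48, 0.07, 0.17 and 0.23 against 0.28, 0.54, 0.44 and 0.14 (-0.11, interval -0.47 to 0.24). The 2 groups overlapped here as well.

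*Cdkn2a* encodes the Ink4 inhibitor p16 and, in another reading frame, Arf, and both of its probes carry the same transcript identifier, so the products were not told apart. It stood at 0.72, -0.18, 0.93 and 0.13 in Tsc2Δpodocyte cells and at 2.14, 0.96, 0.72 and 1.84 in Tsc2flox/flox cells. The lowest control lay within the range of the Tsc2Δpodocyte arrays, the next was 0.03 above their highest, and the other 2 lay well above. The difference of -1.02 did not pass (95% interval -2.21 to 0.18, limma adjusted p = 0.220, exact permutation p = 0.0571). Its neighbour *Cdkn2b*, for p15, stood at 2.71, 2.21, 2.77 and 2.25 against 3.25, 2.40, 2.32 and 3.13 (-0.29, interval -1.10 to 0.53). In each of the 4 groups, *Cdkn2a* and *Cdkn2b* put the 4 arrays in the same order. Among the untreated controls this was array 1, then 4, 2 and 3, and among the untreated Tsc2Δpodocyte arrays 3, then 1, 4 and 2. In the untreated and in the treated controls the array with the highest *Cdkn2a* and *Cdkn2b* levels had the lowest mean of the 31 S phase and mitosis genes. In Tsc2Δpodocyte cells the array with the highest levels of both had the highest mean of those genes without treatment and the second highest with rapamycin.

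**Figure D4:**
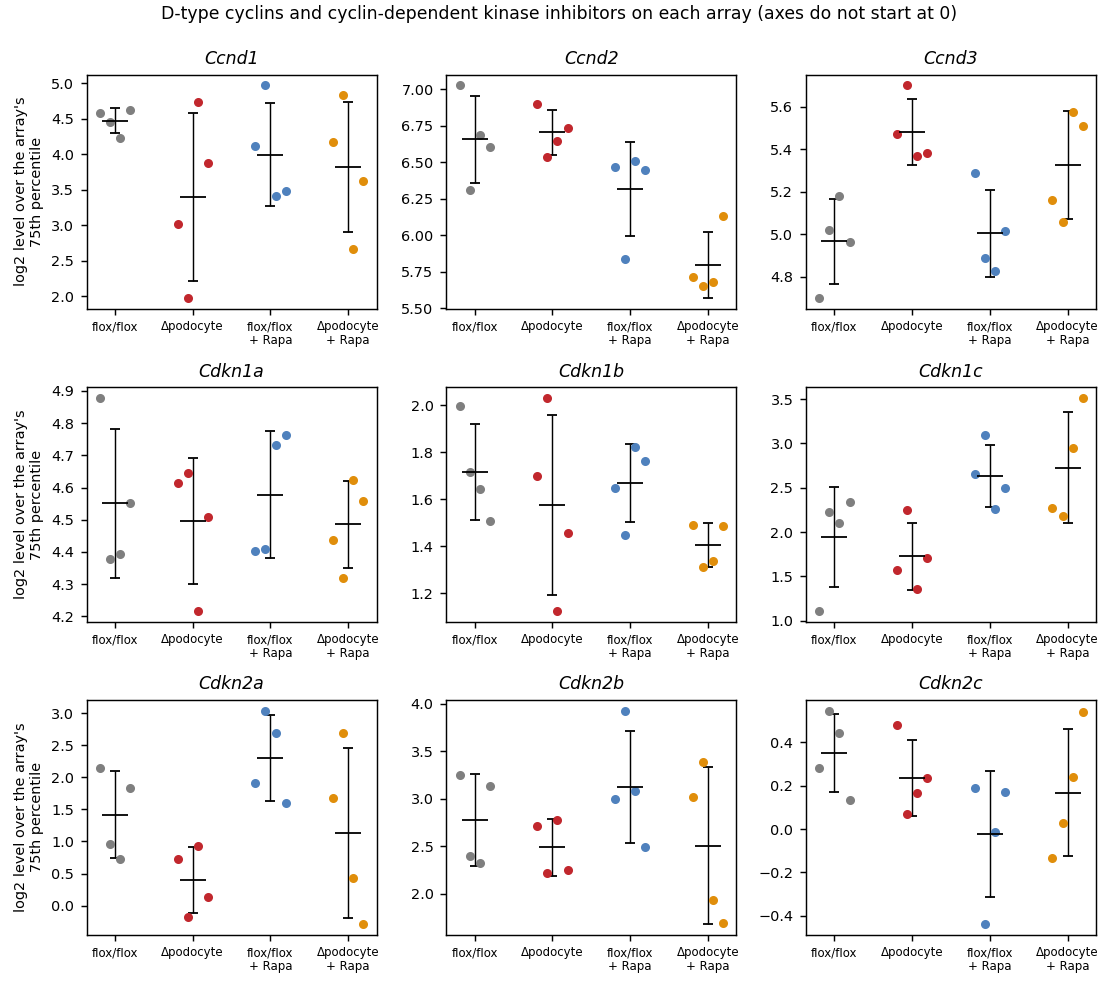
Log2 level over the array's 75th percentile (y axis, which does not start at 0) of the 3 D-type cyclins and the 6 inhibitors on each array, by group (x axis); points are arrays, and the bar and whiskers give the mean and SD of 4 arrays. Ccnd3 of untreated Tsc2Δpodocyte cells lies above that of untreated controls and Ccnd2 of treated Tsc2Δpodocyte cells below that of untreated ones without overlap, while the inhibitors overlap in both genotype comparisons.

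Targets of p53 and other brakes on the cycle were a further list. Of 24 such genes outside the 48, 1 rose and 4 fell in untreated Tsc2Δpodocyte cells, a share near the 19.5% of all tested genes. The antiproliferative genes *Btg2* and *Btg1* fell by 0.53 (interval of the difference -0.74 to -0.33) and 0.42 (-0.60 to -0.24) on the log2 scale, with limma adjusted p-values of 0.00221 and 0.00392. *Ccng2*, for cyclin G2, which is highest in cells that have left the cycle, fell by 0.44 (-0.69 to -0.19, limma adjusted p = 0.0180), and *Phlda3*, a p53 target that restrains Akt, fell by 0.40 (limma adjusted p = 0.0336). *Gadd45a*, a stress gene of DNA damage, rose by 1.06 (limma adjusted p = 0.0351). The median difference of the 24 genes was -0.10. Whether these genes and the members share a cause was not tested.

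Under rapamycin, the same genotype comparison found 0 of 47 members higher and 0 lower, against 6.2% and 4.97% of all tested genes (11.2% in either direction). At an unadjusted p under 0.05, limma counted 3 higher and 3 lower, against 7224 of all 27579 tested probes in either direction. The methods' t-test after adjustment and the normexp background correction also left 0, and quantile normalization and the fit with the replicate number as a block left 1 lower, *Ccnd2*. The median difference was 0.00 for the S phase members, of which 6 lay below 0, and -0.06 for the mitosis members, of which 14 lay below 0. Over all tested genes it was 0.01. *Mki67* stood at 2.72, 3.04, 2.29 and 3.32 in treated Tsc2Δpodocyte cells and at 3.42, 2.66, 2.82 and 3.17 in treated Tsc2flox/flox cells. These ranges covered each other, and the difference was -0.18 (95% interval -0.72 to 0.36, limma adjusted p = 0.707). *Kif11* had the lowest difference of the mitosis members, at -0.63 (-1.18 to -0.09, limma adjusted p = 0.128), and *Ube2c* had the highest, at 0.24.

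Among the G1 genes under rapamycin, *Ccne1* had the smallest p. It stood at 2.33, 2.47, 2.40 and 2.83 in treated Tsc2Δpodocyte cells and at 2.26, 1.82, 1.58 and 1.87 in treated Tsc2flox/flox cells, without overlap. Its difference of 0.62 (95% interval 0.18 to 1.06) had a limma adjusted p of 0.0683 and an exact permutation p of 0.0286. *Ccnd2* was lower by a difference of -0.52 (-0.90 to -0.15, limma adjusted p = 0.0724), *E2f1* had a difference of 0.43 (0.08 to 0.78, limma adjusted p = 0.107) and *Rb1* one of -0.31 (-0.61 to -0.01, limma adjusted p = 0.169). *Ccnd3* had a difference of 0.32 (0.01 to 0.63, limma adjusted p = 0.172) with overlapping groups, its levels being 5.16, 5.06, 5.58 and 5.51 against 5.29, 4.89, 4.83 and 5.02. The second *Ccnd3* probe had a difference of 0.46 and did not pass (limma adjusted p = 0.0656), against 0.34 without treatment. The interactions of the chosen and the second probe were -0.19 and 0.12 and did not pass (limma adjusted p = 0.862 and 0.918). *Ccnd1* stood at 4.18, 4.83, 2.67 and 3.62 against 4.12, 4.97, 3.41 and 3.48. The treated groups thus covered the same range for cyclin D1 (-0.17, interval -1.34 to 0.99).

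The inhibitors under rapamycin again gave 0 of 6 that passed, with a median difference of -0.18. *Cdkn2a* stood at 1.69, 2.70, 0.42 and -0.29 in treated Tsc2Δpodocyte cells and at 1.91, 3.04, 2.69 and 1.60 in treated Tsc2flox/flox cells. Tsc2Δpodocyte arrays 3 and 4 lay below all controls and arrays 1 and 2 among them (difference -1.18, 95% interval -2.37 to 0.02, limma adjusted p = 0.198). *Cdkn2b* followed with 3.02, 3.39, 1.93 and 1.69 against 2.99, 3.92, 3.08 and 2.50 (-0.62, interval -1.43 to 0.20). For *Cdkn2b* as for *Cdkn2a*, the same 2 treated Tsc2Δpodocyte arrays were below every control.

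*Cdkn1a* stood at 4.44, 4.32, 4.62 and 4.56 against 4.40, 4.41, 4.73 and 4.76 (-0.09, interval -0.38 to 0.20). *Cdkn1b* stood at 1.49, 1.31, 1.34 and 1.49 against 1.65, 1.45, 1.82 and 1.76 (-0.27, interval -0.61 to 0.08). Treated Tsc2Δpodocyte arrays lay low for p27, with 1 control among them, and across the controls for p21. *Cdkn1c* stood at 2.27, 2.18, 2.95 and 3.51 against 2.65, 3.09, 2.26 and 2.50 (0.10, interval -0.60 to 0.79), and *Cdkn2c* at -0.13, 0.03, 0.24 and 0.54 against 0.19, -0.44, -0.02 and 0.17 (0.19, interval -0.16 to 0.55). For p57 and p18 the groups overlapped.

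Of the other lists, 0 of 28 other S phase genes, 0 of 40 other mitosis genes and 0 of 14 pocket protein, E2F and DREAM genes passed between the treated genotypes (11.2% of all tested genes). The smallest p of each belonged to *Cdc25a* (-0.25, limma adjusted p = 0.255), to the kinetochore gene *Spc25* (0.36, limma adjusted p = 0.283) and to the DREAM subunit gene *Lin52* (-0.23, limma adjusted p = 0.208). Of the 24 genes of p53 and other brakes 0 rose and 3 fell, against 6.2% and 4.97% of all tested genes. *Ccng2*, *Btg1* and *Phlda3* fell by 0.52, 0.32 and 0.42 on the log2 scale (limma adjusted p = 0.0141, 0.0294 and 0.0392). All 4 *Ccng2* arrays of treated Tsc2Δpodocyte cells, between 1.70 and 1.80, lay below the treated controls, between 2.20 and 2.34.

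Whether the genotype difference itself changed with rapamycin was tested as an interaction, which 0 of 47 members passed, against 0% of all tested genes. At an unadjusted p under 0.05, limma counted 0 members above 0 and 1 below, against 2030 of all 27579 tested probes in either direction. The 1 below was *Ccnd2* (-0.57, 95% interval -1.10 to -0.04, limma adjusted p = 0.666). Under quantile normalization or normexp correction 0 members passed. The interaction of the 31 S phase and mitosis genes had a median of 0.40, with 30 above 0 and *Mcm3* below, against a median of 0.01 for all tested genes. The chosen *Mcm3* probe was low on Tsc2Δpodocyte + Rapamycin array 2 (1.93, the others 3.45 to 4.31). The *Mcm3* probes not chosen had interactions of 0.24 and 0.42 and did not pass. None of the intervals of the 31 genes left out 0. A change of the genotype difference with rapamycin was therefore not shown beyond the spread between arrays.

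The last comparison set treated against untreated cells of the same genotype, which were separate groups of samples. In Tsc2Δpodocyte cells, 0 members rose and 1 fell, against 1.97% and 1.53% of all tested genes (3.5% in either direction). The one that fell was *Ccnd2*. It stood at 5.71, 5.65, 5.68 and 6.13 in treated cells and at 6.90, 6.53, 6.64 and 6.74 in untreated cells, without overlap. Cyclin D2 fell by 0.91 on the log2 scale, to 1.88-fold less (95% interval of the difference -1.29 to -0.53, limma adjusted p = 0.0217, exact permutation p = 0.0286). The other 2 *Ccnd2* probes fell by 0.92 and 0.69 (limma adjusted p = 0.0269 and 0.0333). The call was lost without Tsc2Δpodocyte array 1 or 4 or Tsc2Δpodocyte + Rapamycin array 2 (limma adjusted p = 0.0553, 0.0516 and 0.0543), without the filter on dim probes (0.0700) and by the methods' t-test after adjustment (0.0768).

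In Tsc2flox/flox cells *Ccnd2* stood at 6.47, 5.84, 6.51 and 6.45 with rapamycin and at 7.03, 6.31, 6.69 and 6.61 without (-0.34, 95% interval -0.72 to 0.03, limma adjusted p = 0.358). Treated array 2 was low and the other 3 lay within the range of the untreated arrays. That *Ccnd2* fell in one genotype and did not pass in the other is not a tested difference, since its interaction did not pass. In these controls 0 of 47 members rose and 0 fell, against 0.106% and 0.0568% of all tested genes (0.163% in either direction). At an unadjusted p under 0.05, limma gave 0 higher and 4 lower, against 4459 of all 27579 tested probes in either direction. Under quantile normalization, normexp correction or the methods' t-test 0 members passed. All 31 S phase and mitosis genes had lower means after rapamycin in Tsc2flox/flox cells (median -0.31), among them *Tyms*, which makes thymidylate, at -0.51 (-0.97 to -0.05, limma adjusted p = 0.269). In Tsc2Δpodocyte cells 23 of the 31 lay above 0 (median 0.10).

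*Cdkn1c* had the highest difference of the members after rapamycin in Tsc2Δpodocyte cells, 1.00 (95% interval 0.31 to 1.70, limma adjusted p = 0.0939, exact permutation p = 0.0571). Its levels there were those given above, 2.18 to 3.51 with rapamycin and 1.36 to 2.25 without. Only the lowest treated array reached below the highest untreated one. In Tsc2flox/flox cells its difference was 0.68 (-0.01 to 1.38, limma adjusted p = 0.316). *Cdkn2a* differed by 0.73 in Tsc2Δpodocyte and 0.89 in Tsc2flox/flox cells, and the intervals of both included 0. Of the 24 genes of p53 and other brakes 2 rose and 1 fell with rapamycin in Tsc2Δpodocyte cells, against 1.97% and 1.53% of all tested genes. *Btg2* and *Btg1* rose by 0.61 and 0.33 (limma adjusted p = 0.0102 and 0.0477), and *Mdm2*, for the ubiquitin ligase of p53, fell by 0.30 (limma adjusted p = 0.0449).

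Markers of the cells that a glomerular culture can hold moved with some of these groups. All 15 podocyte markers were above background on all 4 arrays of 3 groups and 14 in untreated Tsc2Δpodocyte cells. Between untreated genotypes 1 of the 15 rose and 1 fell, with differences from -1.07 to 1.80 (median 0.08, 8 above 0 and 7 below). With rapamycin 2 rose and 0 fell. Of all tested genes 10.3% rose and 9.2% fell without treatment, and 6.2% and 4.97% with rapamycin. Sums weigh the brightest markers most, and podocyte content was not measured. The summed linear level of the 15 was 143 to 180 in untreated Tsc2flox/flox, 157 to 292 in untreated Tsc2Δpodocyte, 169 to 203 in treated Tsc2flox/flox and 161 to 298 in treated Tsc2Δpodocyte cells. The highest sums, 292 and 298, belonged to the Tsc2Δpodocyte arrays that were lowest in S phase and mitosis genes, array 2 without and array 3 with rapamycin. Those arrays also had the lowest sums of the 10 parietal epithelial markers in their groups, 150 and 200. The controls differed from this, since the untreated control lowest in S phase and mitosis genes, array 1, had the lowest podocyte sum of its group, 143, and the treated control lowest in them, array 2, had the highest podocyte and parietal sums of its group, 203 and 512. Of the 10 parietal markers 3 fell in Tsc2Δpodocyte cells in each genotype comparison and 7 did not pass, against 9.2% and 4.97% of all tested genes that fell. Parietal sums were 150 to 250 against 253 to 329 without treatment and overlapped with rapamycin, at 200 to 442 against 279 to 512. Of 12 mesangial and smooth muscle markers 3 rose in untreated Tsc2Δpodocyte cells, against 10.3% of all tested genes (sums 707 to 970 against 626 to 778). With rapamycin 1 of the 12 rose, against 6.2%, and the median difference was 0.05, with 6 above 0 and 6 below (sums 657 to 751 against 576 to 694).

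Endothelial markers ranged more widely in untreated cells, with sums of 10.3 to 125 in Tsc2flox/flox and 14.8 to 102 in Tsc2Δpodocyte cells, than in treated cells, with 8.34 to 16.9 and 7.55 to 12.5. Between treated and untreated cells the 12 endothelial markers had a median difference of -2.06 in Tsc2flox/flox cells, with 12 below 0. In Tsc2Δpodocyte cells it was -1.91, with 11 below 0. In either genotype 0 of 12 passed, against 0.163% and 3.5% of all tested genes. The untreated control with the highest endothelial sum, 125, was array 1, the one with the lowest S phase and mitosis level, which also had the highest macrophage sum, 19.8. The other 3 untreated controls had macrophage sums of 9.44 to 12.7, below every untreated Tsc2Δpodocyte array (13.7 to 22.2). Of the 12 macrophage markers 11 lay above 0 between the untreated genotypes (median 0.76), of which *Cd68* alone passed, and 12 had interactions below 0 (median -0.86), of which 0 passed. With rapamycin the sums were 12.5 to 20.8 in Tsc2flox/flox and 13.5 to 20.5 in Tsc2Δpodocyte cells. Of 12 tubule markers 7 were tested, and those 7 were above background on all 4 arrays of every group, with 1 of them, *Lrp2*, lower in each genotype comparison. *Umod*, *Slc12a3*, *Slc34a1* and *Calb1*, which define tubule segments, were above background on no array of any group. Tubule sums were 6.16 to 15.7 in untreated Tsc2flox/flox, 3.02 to 13.5 in untreated Tsc2Δpodocyte, 7.28 to 34.5 in treated Tsc2flox/flox and 5.41 to 27.3 in treated Tsc2Δpodocyte cells. The part of these cell types in the levels of the cell cycle genes was not tested.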

How the data were processed

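Total RNA of 16 primary podocyte samples was hybridised to one-colour Agilent SurePrint G3 arrays. The deposited scanner files hold, per spot, a background-subtracted intensity that the authors obtained with Agilent Feature Extraction 10.7.3.1 (version per the submitters' processing notes). The deposited series table holds the authors' own log2 values of these arrays. Set against the scanner values, they proved to be scaled to each array and centred on each probe's median, with column medians from -0.16 to 0.24, and they were used as an alternative only. No aligner or genome build enters these values.

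Here each intensity was divided by its array's 75th percentile and put on the log2 scale. Of 62976 spots 3671 controls were left out, as were spots marked as outliers, and repeated spots of a probe were averaged. Of 56605 probes 33024 were matched to 22917 genes by transcript identifier through RefSeq tables. The test took in the 27579 probes, of 14095 genes, that stood well above background on each of the 4 arrays of some group. No spot was saturated. A model of 4 group means over all 16 arrays was fitted in limma 3.58.1 (R 4.3.3) with empirical Bayes moderation, with the Benjamini-Hochberg adjustment over all tested probes. Exact permutation tests were run per gene. The number of arrays limits the precision. The authors' methods name a 1.5-fold threshold, which a gene did not have to reach to pass here.

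The members and the further lists were chosen with earlier results of these data known. All 48 members are accounted for by the brightest tested probe. Values per array are given for members that passed, for the 6 inhibitors, *Ccnd1* and *Mki67*, and for some members near the threshold that were chosen after their values were seen, and of each further list up to 3 genes with the smallest p per genotype comparison and those that passed are named. The alternatives tried were the deposited values, the mean of a gene's probes, quantile normalization, a normexp background correction on median signals with an offset of 50, a looser and a stricter filter on dim probes, a prior that is trended and robust, a block for the replicate number, a fit of the 8 compared arrays alone, the methods' t-test, and each array left out in turn. Same-numbered samples did not deviate together in every pair of any comparison, and no label ties a number to a mouse, litter or day, so the numbers were not taken to pair the samples.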

Additional observations from a re-analysis of the deposited data

Results flagged for a closer look

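In a group of 4 arrays, 1 array was set apart where its gap to the nearest other array was a larger share of the group's range than Dixon's 95% critical value allows. Chance alone sets an array apart in about 1 in 20 groups, and here 12 of 188 member and group sets were. Tsc2Δpodocyte array 2 was set apart from its group 6 times. It was low for *Ccna2* (1.64, the others 2.23 to 2.30), *Aurka* (2.77, the others 3.29 to 3.35), *Aurkb* (-0.38, the others 0.23 to 0.30), *Plk1* (2.42, the others 3.20 to 3.34) and *Foxm1* (0.61, the others 1.40 to 1.44), and high for *Cdk2* (-1.39, the others -1.82 to -1.77). Tsc2flox/flox + Rapamycin array 1 was high for *Rrm2* (5.16, the others 4.60 to 4.66) and *Cdc6* (0.30, the others -0.61 to -0.51). For *Ccnd2*, Tsc2flox/flox + Rapamycin array 2 was low (5.84, the others 6.45 to 6.51) and Tsc2Δpodocyte + Rapamycin array 4 was high (6.13, the others 5.65 to 5.71). *Cdk6* was low on Tsc2flox/flox array 1 (-1.65, the others -1.21 to -1.15), and *E2f1* was high on Tsc2Δpodocyte array 4 (1.24, the others 1.06 to 1.09). The genes set apart on one array move together, so these are not separate events.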

How the results depend on the processing

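No result that passed in any setting had the opposite direction in another. The count of members higher in untreated Tsc2Δpodocyte cells (1, *Ccnd3*) became 0 under normexp correction, with no filter on dim probes, by the methods' t-test after adjustment and with the mean of a gene's probes (adjusted p = 0.0600, 0.0711, 0.0535 and 0.0540, by limma but for the t-test), and was 0 to 1 with each array left out. The count lower (0) became 1 under quantile normalization (*Rrm1*), 4 under normexp correction (*Rrm1*, *Cenpf*, *Kif11* and *Foxm1*), and 2 each with probes above background on all 16 arrays and with the trended and robust prior (*Rrm1* and *Kif11*), and was 0 to 6 with each array left out, the 6 without Tsc2flox/flox array 1. Shares over all tested genes were not computed for the alternatives. Under rapamycin the count higher was 0 to 1 and the count lower 0 to 1 with each array left out. The members that then passed were *Ccne1* without Tsc2flox/flox + Rapamycin array 1 or Tsc2flox/flox array 1, *E2f1* (higher) and *Cdkn2a* (lower) without Tsc2Δpodocyte + Rapamycin array 2, and *Ccnd2* without Tsc2Δpodocyte + Rapamycin array 4 or Tsc2flox/flox + Rapamycin array 2. The count lower became 1 (*Ccnd2*) under quantile normalization and with the replicate block (limma adjusted p = 0.0467 and 0.0353). The replicate number was not taken as a pairing, since deviations correlated best with their own number in 3 of 16 cases, though between treated genotypes the same-number correlations were -0.02, 0.46, 0.17 and 0.29, and the block changed no other count of members. The count lower after rapamycin in Tsc2Δpodocyte cells (1, *Ccnd2*) became 0 with no filter and by the methods' t-test after adjustment (0.0700 and 0.0768) and was 0 to 1 with each array left out. The cause was not tested.

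The median difference of the 31 S phase and mitosis genes between untreated genotypes was -0.59 to -0.23 with each array left out, and all 31 stayed below 0 in each alternative. Between treated genotypes the median was -0.21 to 0.11 and the count below 0, 20 as reported, was 8 without Tsc2Δpodocyte + Rapamycin array 3 and 11 without Tsc2flox/flox + Rapamycin array 1. In treated against untreated Tsc2Δpodocyte cells it was -0.05 to 0.26, and the count below 0 went from 8 to 24 without untreated array 2 and to 22 without treated array 4. In Tsc2flox/flox cells it was -0.52 to -0.16. These counts follow single arrays.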
